A study of Homo sapiens with 36 samples.

Results

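The genes described here encode the proteins of the mitochondrial ribosome. They are every gene symbol that begins with MRPL or MRPS followed by a number, 76 of the 19137 symbols in the count tables, and 47 of them carry large-subunit names (MRPL) and 29 small-subunit names (MRPS). Ribosome profiling, which sequences the stretches of messenger RNA covered by ribosomes, and RNA sequencing were done in 2 human cell models of transformation, 36 libraries in 27 labelled groups. MCF10A-ER-Src (ER-Src below) is a breast epithelial line in which a fusion of the Src kinase to the hormone-binding part of the oestrogen receptor is switched on by 4-hydroxytamoxifen, here 1 µM for 1, 4 or 24 h; cells at 0 h and cells given ethanol for 1, 4 or 24 h were the uninduced controls. The second model is BJ, a skin fibroblast line, as 3 lines labelled EH, EL and ELR. What the letters stand for is not written in the labels; from general knowledge of such series, all 3 carry telomerase, EL adds the SV40 early region and ELR adds oncogenic HRAS as well. RNA was sequenced once per BJ line and per tamoxifen time and in 4 uninduced ER-Src libraries; cycloheximide footprints had 2 libraries per BJ line and per tamoxifen time and 4 uninduced ones, and harringtonine footprints 2 per BJ line and 1 each at 0, 1, 4 and 24 h in ER-Src. Each model is a single cultured line, and the labels do not say that replicate libraries came from separate cultures, so p-values measure only the spread between these libraries, which may be technical.

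The mitochondrial ribosome translates the few messages of the mitochondrial genome, all of which encode core subunits of the respiratory chain and of ATP synthase. Its own proteins are encoded in the nucleus, translated in the cytosol by ordinary ribosomes and imported. Many have a bacterial counterpart of the same number, while others have none and were added during the evolution of mitochondria. In what follows, the 44 genes numbered up to L36 or S21 are called the bacterial series, and the other 32 are called later numbers. The names of a few are historical: MRPS18A and MRPS30 proteins sit in the large subunit, and the MRPS36 protein is now known as a part of the 2-oxoglutarate dehydrogenase complex.

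Footprints were taken after cycloheximide (100 µg/ml for 90 s), a drug that stops ribosomes where they are, and in other libraries after harringtonine (2 µg/ml for 5 min), a drug that lets elongating ribosomes run off and leaves those at the start. Total counts per library were 2225844 to 3008760 for ER-Src RNA, 1334866 to 3628073 for ER-Src cycloheximide footprints and 163092 to 374359 for ER-Src harringtonine footprints. The BJ ranges were 2071883 to 2551358, 1178012 to 2606344 and 129175 to 214806. Levels are normalised read counts (CPM, read counts scaled to a common library size with TMM). Lists of 8 markers each of epithelial cells and fibroblasts checked the labels: under cycloheximide the epithelial markers summed to 10420 to 20777 CPM in ER-Src libraries and 11.9 to 63.0 CPM in BJ libraries, and the fibroblast markers to 9.38 to 34.0 and 1115 to 30057 CPM. Of 4 endothelial markers, 3 stayed under 1 CPM in every ER-Src cycloheximide library and all 4 in every BJ one. Of 5 leukocyte markers, 3 stayed under 1 CPM in both models, but the list as a whole was not absent. Its summed cycloheximide level (CPM) ranged from 49.1 to 148 across the ER-Src libraries. Across the BJ libraries the range of this sum was 109 to 147.

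One member, MRPS18B, had a count of 0 in all 36 libraries, where a count of 0 allows up to 3 counts per library. Its gene lies in the part of chromosome 6 for which the hg19 assembly also holds alternative haplotypes, and the tables place it 7 times. Of 169 symbols placed on these haplotypes as well, 125 (74.0%) were at 0 in every library, against 3765 (19.7%) of all symbols, so its value is not read as a level. The other 75 genes passed the filter on low counts in every test except the harringtonine comparison of the BJ lines, in which 15 did. Many of these genes have processed pseudogenes elsewhere in the genome, and the sources used here do not say how reads matching both were counted.

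The 6 genes whose footprints rose most from EH to ELR, as described further on, are introduced by the 120 bases before their start sites. The sequences are RefSeq's, on GRCh38.p14, 5′ to 3′ on the gene's strand, and capitals mark matches to the core of ETS-family sites (CCGGAAG) or to part of the NRF1 site (GCGCANGC) on either strand.
MRPS17, chr7:55951757-55951876, plus strand: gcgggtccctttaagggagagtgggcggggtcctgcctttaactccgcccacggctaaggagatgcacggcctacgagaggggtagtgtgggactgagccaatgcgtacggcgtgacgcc
MRPL12, chr17:81703247-81703366, plus strand: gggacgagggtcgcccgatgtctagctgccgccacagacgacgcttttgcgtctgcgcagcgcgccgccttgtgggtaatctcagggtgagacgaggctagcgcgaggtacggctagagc
MRPL30, chr2:99181064-99181183, plus strand: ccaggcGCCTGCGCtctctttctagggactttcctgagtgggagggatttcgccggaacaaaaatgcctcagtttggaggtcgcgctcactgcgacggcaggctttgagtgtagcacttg
MRPS15, chr1:36464385-36464504, minus strand: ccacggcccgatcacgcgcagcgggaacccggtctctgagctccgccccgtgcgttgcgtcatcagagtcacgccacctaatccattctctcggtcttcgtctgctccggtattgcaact
MRPL27, chr17:50373185-50373304, minus strand: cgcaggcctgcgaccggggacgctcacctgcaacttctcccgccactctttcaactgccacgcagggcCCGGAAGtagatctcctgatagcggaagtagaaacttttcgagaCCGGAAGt
MRPS23, chr17:57850045-57850164, minus strand: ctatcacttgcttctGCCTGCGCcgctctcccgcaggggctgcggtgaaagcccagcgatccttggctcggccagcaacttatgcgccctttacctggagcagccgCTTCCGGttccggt

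Over the whole 300-base windows of RefSeq's promoter table (250 bases before to 50 after the start), 67 of the 76 genes were matched by symbol. A set of 5 short motifs was searched on both strands. The ETS core was found in 28 (41.8%) of these 67 windows, in 19.7% of 9248 windows of tested genes and in 10.7% of all 27305 windows. The core of YY1 sites (AAGATGGC) was found in 20 (29.9%), against 5.57% of tested genes and 3.03% of all. The NRF1 motif was found in 31.3%, against 21.5% and 12.5%. The GC box (GGGCGG) was found in 61.2% against 70.2% of tested genes (44.6% of all), and the E-box (CACGTG) was found in 8.96% against 10.2% (7.43% of all). In 66 windows of cytosolic ribosomal protein genes, the ETS core was found in 33.3%, the YY1 core in 10.6% and the NRF1 motif in 13.6%. A raised share of the ETS core was thus not particular to the members. ETS factors, NRF1 and YY1 are known as regulators of nuclear genes for mitochondrial proteins. However, a match of letters is a description and not a binding site. The windows of MRPS17, MRPL12 and MRPS15 held neither of the capitalised motifs.

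A second shared feature was position. Within 1000 bases upstream of their start site, 16 of 76 genes (21.1%) had the start of another protein-coding gene on the opposite strand. The share was 10.7% of 11259 tested genes with an annotated start. Overlapping pairs and non-coding genes were not counted. Partners included the respiratory chain subunits NDUFB5 (beside MRPL47) and NDUFS6 (beside MRPL36), the mitochondrial seryl-tRNA synthetase SARS2 (beside MRPS12), the chaperonin subunit TCP1 (beside MRPL18) and the cytosolic ribosomal protein gene FAU (beside MRPL49). In 1 pair both partners were members: MRPL46 and MRPS11 start 62 bases apart on chromosome 15 of GRCh37, and the bases between them, on the plus strand, are shown because the values of the pair differ below.
MRPL46 to MRPS11, chr15:89010622-89010683: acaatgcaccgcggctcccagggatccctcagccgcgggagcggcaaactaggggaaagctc

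Levels of these messages differed widely, with MRPS21 highest and MRPS31 lowest in the footprints of both models. Compared per kilobase of coding sequence, the 75 genes had a median of 172 CPM per kb in ER-Src cycloheximide footprints (range 29.8 to 928) and 141 in BJ (39.7 to 628), against medians of 2031 and 2129 for the cytosolic ribosomal proteins. MRPS21, the counterpart of bacterial S21, was highest in both models, at 928 ± 165 CPM per kb in ER-Src (SD, n = 10) and 628 ± 125 in BJ (SD, n = 6). The SDs of this paragraph span all cycloheximide libraries of a model, so they include differences between lines and treatments. Next in ER-Src came MRPL13 (477 ± 27.4), MRPL51 (466 ± 54.1), MRPL17 (369 ± 51.2), MRPL20 (359 ± 37.4) and MRPL33 (359 ± 59.9), of which MRPL13 and MRPL51, and then MRPL17, MRPL20 and MRPL33, differed by less than 1 SD. In BJ the same genes followed except that MRPL52 (278 ± 60.0) stood in the place of MRPL20. The lowest was MRPS31, a small-subunit protein without bacterial counterpart, at 29.8 ± 5.13 in ER-Src and 39.7 ± 7.92 in BJ. MRPL10 (53.1 ± 6.63) and MRPL45 (58.2 ± 4.18) were next lowest in ER-Src, and MRPL45 (46.3 ± 15.4) and MRPS30 (49.1 ± 13.5) in BJ. MRPL10 and MRPL12 encode the stalk that brings translation factors to the ribosome; MRPL12, of which a ribosome holds several copies, stood at 251 CPM per kb in ER-Src and 238 in BJ, and MRPL10 at 53.1 and 52.8.

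Per kilobase of coding sequence, footprints were more even across these genes than RNA. The sources do not say whether RNA reads outside the coding sequence were counted, so their part in the RNA spread was not tested. The SD of log2 level per kb across the 75 genes was 1.07 for RNA and 0.81 for cycloheximide footprints in ER-Src, and 1.12 and 0.80 in BJ. The ratio of the highest to the lowest decile was 5.83 for RNA and 3.95 for footprints in ER-Src, and 6.21 and 4.16 in BJ. By this ratio the smaller spread of footprints was not particular to the members. Cytosolic ribosomal protein genes had 11.84 for RNA and 3.34 for footprints in ER-Src, and 12.21 and 4.35 in BJ. Respiratory chain genes had 12.78 and 7.69 in ER-Src, and 10.48 and 5.95 in BJ. The SD of log2 went the other way for cytosolic ribosomal protein genes in BJ (RNA 1.39, footprints 1.44). Across these 75 genes, which share their libraries and are not replicates, footprints per kb followed RNA per kb with a Spearman rho of 0.48 in each model, against 0.84 and 0.81 across all genes with coding lengths (10754 and 10761). A rho depends on the range of levels that a set covers, which was not matched, so these values are not directly comparable. MRPL12, MRPS12, MRPL3, MRPL41 and MRPL36 illustrate the smaller spread of footprints. Their RNA ranged from 26.4 (MRPS12) to 209 (MRPL3) CPM per kb in ER-Src, and their footprints from 142 (MRPL36) to 299 (MRPL3).

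**Figure D1:**
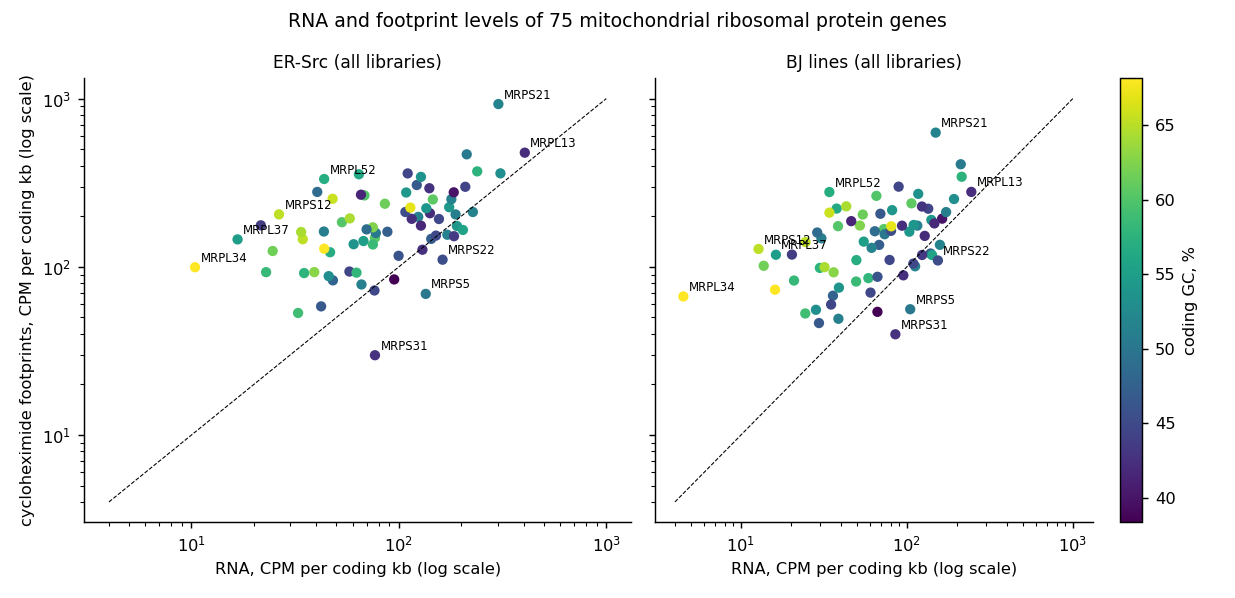
Level of RNA (x axis) and of cycloheximide footprints (y axis) for 75 genes, both in CPM per coding kilobase on log axes, as means over all libraries of each model; the colour gives the GC content of the coding sequence and the dashed line marks equal values. The points spread more along the RNA axis than along the footprint axis (SD of log2 1.07 against 0.81 in ER-Src, 1.12 against 0.80 in BJ).

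From EH to EL to ELR fibroblasts, ribosome footprints on mitochondrial ribosomal protein messages rose at each step. Summed over the members, the cycloheximide footprints were 5059 and 4975 CPM in the EH replicates, 6885 and 6865 in EL, and 8180 and 8310 in ELR. The lines do not overlap. EH was lowest and ELR highest also for RNA (3175, 3865 and 4596 CPM in the single libraries) and for harringtonine footprints (1795 and 2080, 2702 and 2381, 3170 and 3253).

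**Figure D2:**
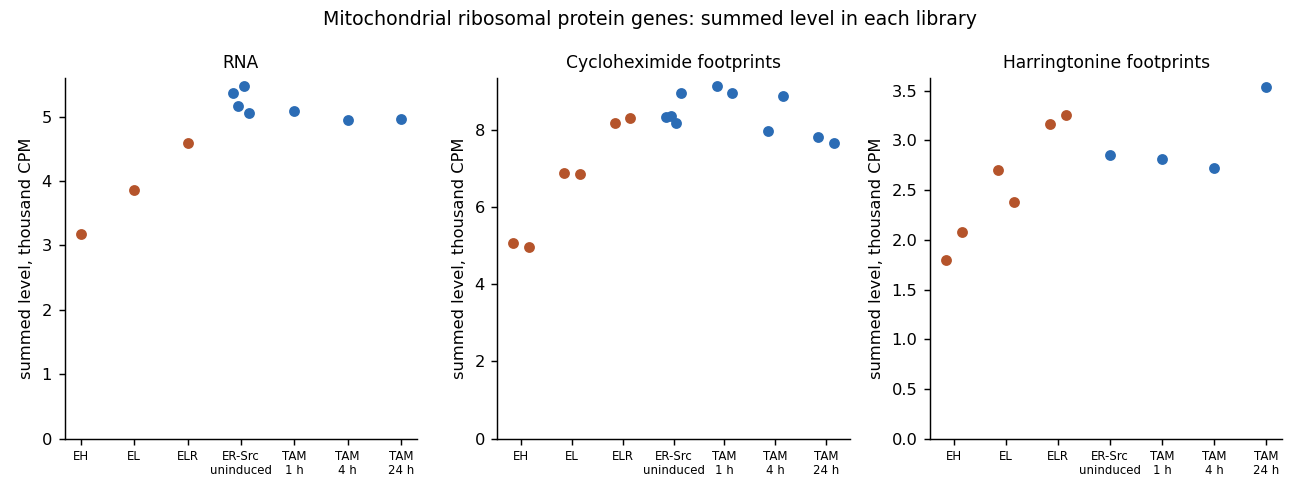
Summed level of the members in each library, in units of 1000 CPM from 0, for RNA, cycloheximide footprints and harringtonine footprints (TAM: hydroxytamoxifen); each point is 1 library, brown for BJ lines and blue for ER-Src. The EH libraries are lowest in all 3 panels, and the ELR footprints under cycloheximide (8180 and 8310 CPM) lie at the level of the uninduced ER-Src libraries (8180 to 8952 CPM).

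Between ELR and EH, 71 of 75 genes rose and none fell in edgeR's quasi-likelihood test on cycloheximide footprints (adjusted p under 0.05), with a median log2 change of 0.73; the median of all genes tested was −0.01, and 25.5% of them were called higher. By unadjusted p under 0.05, 73 of the 75 and 5764 of all 9996 genes differed. DESeq2 called 57 members higher and 0 lower. By class, 46 of 47 genes with large-subunit names (median 0.76) and 25 of 28 with small-subunit names (median 0.67) rose. So did 40 of 43 of the bacterial series (median 0.76) and 31 of 32 later numbers (median 0.68). The rise thus extended over both series of names, MRPL and MRPS, and over bacterial series and later numbers. As context, 76 of 78 cytosolic ribosomal protein genes rose and 1 fell (median 1.23), and 55 of 81 respiratory chain subunit genes rose and 5 fell (median 0.33).

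The BJ replicates lay close together: their counts differed by a chi-square per gene of 1.09 to 1.18, little more than counting error, against 3.83 to 5.27 for the ER-Src replicates. Fitting the BJ lines together with the ER-Src cycloheximide libraries (16 in all), which gives them the wider spread of that model, left 56 higher in ELR against EH, all among the 71, where 16.1% of all genes were called higher. It left 36 higher for EL against EH (9.65% of all genes) and 14 for ELR against EL (6.42%). All 8 fibroblast markers also fell from EH to ELR (median log2 −6.93) and from EH to EL (median −2.40); their part in these results was not tested. In bulk lysates fewer cells of a type and less RNA per cell cannot be told apart.

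MRPS17 rose most. This counterpart of bacterial S17 binds the small-subunit ribosomal RNA, and its gene lies at chr7:56019570-56024193 on the plus strand of GRCh37. Its footprints were 36.6 and 30.4 CPM in EH, 71.1 and 63.5 in EL, and 82.7 and 98.7 in ELR. The 3 lines do not overlap. The log2 change from EH to ELR was 1.46 ± 0.16 (SE, adjusted p = 5.5e-12). MRPL12, the stalk protein, which is also known to bind the mitochondrial RNA polymerase, lies at chr17:79670397-79674547 on the plus strand. It had 90.8 and 81.9 CPM in EH, 122 and 136 in EL and 215 and 204 in ELR, so that it rose at each step. The change from EH to ELR was 1.33 ± 0.11 (adjusted p = 2.9e-18).

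Among the other large-subunit genes, MRPL30 had 50.4 and 41.4 CPM in EH, 63.0 and 72.2 in EL and 103 and 112 in ELR (log2 change to ELR 1.26 ± 0.14). MRPL27, whose bacterial counterpart reaches the peptidyl transferase centre, had 65.6 and 55.2 CPM in EH, 88.3 and 91.3 in EL and 136 and 142 in ELR (1.24 ± 0.12). MRPL3, the counterpart of a protein close to that centre, had 177 and 190 CPM in EH, 228 and 194 in EL and 294 and 304 in ELR (0.76 ± 0.08). All 3 rose from EH to ELR without overlap of these lines. MRPL41, a mitochondria-specific protein, went from 56.5 and 56.1 CPM in EH to 96.7 and 91.8 in EL and 105 and 111 in ELR (0.99 ± 0.13), and the small MRPL36 from 35.1 and 30.4 to 32.9 and 48.0 and then 58.9 and 56.6 (0.87 ± 0.19). MRPL41 took most of its rise at the first step, and MRPL36 was called only at the second among the steps (adjusted p = 0.24 for EL against EH and 0.0012 for ELR against EL, and 0.072 for the latter in the fit of 16 libraries, where neither step is called); the difference between the steps was not tested.

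Among the genes with small-subunit names, MRPS15 had 63.4 and 66.2 CPM in EH, 102 and 98.7 in EL and 152 and 142 in ELR. Its log2 change to ELR was 1.25 ± 0.12. MRPS23, without bacterial counterpart, had 75.6 and 73.6, 125 and 113, and 171 and 165 CPM (1.23 ± 0.11). Both were ordered EH, EL, ELR in every library. MRPS12, the counterpart of the protein at the decoding site of bacterial ribosomes, had a smaller value: 42.0 and 44.2 CPM in EH, 60.8 and 50.7 in EL and 58.1 and 61.4 in ELR (0.52 ± 0.17, adjusted p = 0.0058, and 0.052 in the fit of 16 libraries, where the call is lost). Of the MRPS18 paralogues, MRPS18A went from 38.9 and 38.6 CPM in EH to 59.6 and 60.8 in ELR (0.69 ± 0.17) and MRPS18C from 84.7 and 69.9 to 109 and 105 (0.51 ± 0.12).

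Only 4 of the 75 tested genes were not called between ELR and EH, and they were chosen for naming after their values were seen. MRPS11 had 44.3 and 59.8 CPM in EH, 51.2 and 48.0 in EL and 37.4 and 44.8 in ELR (log2 −0.29 ± 0.18, adjusted p = 0.17). Its lines overlap, while MRPL46, which starts 62 bases away as shown above, went from 38.9 and 29.4 to 57.0 and 61.9 CPM (0.83 ± 0.18, adjusted p = 5.7e-05); the difference between the 2 genes was not tested. MRPS33 changed by 0.05 ± 0.20, MRPS10 by 0.25 ± 0.11 and MRPL23 by 0.25 ± 0.12.

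**Figure D3:**
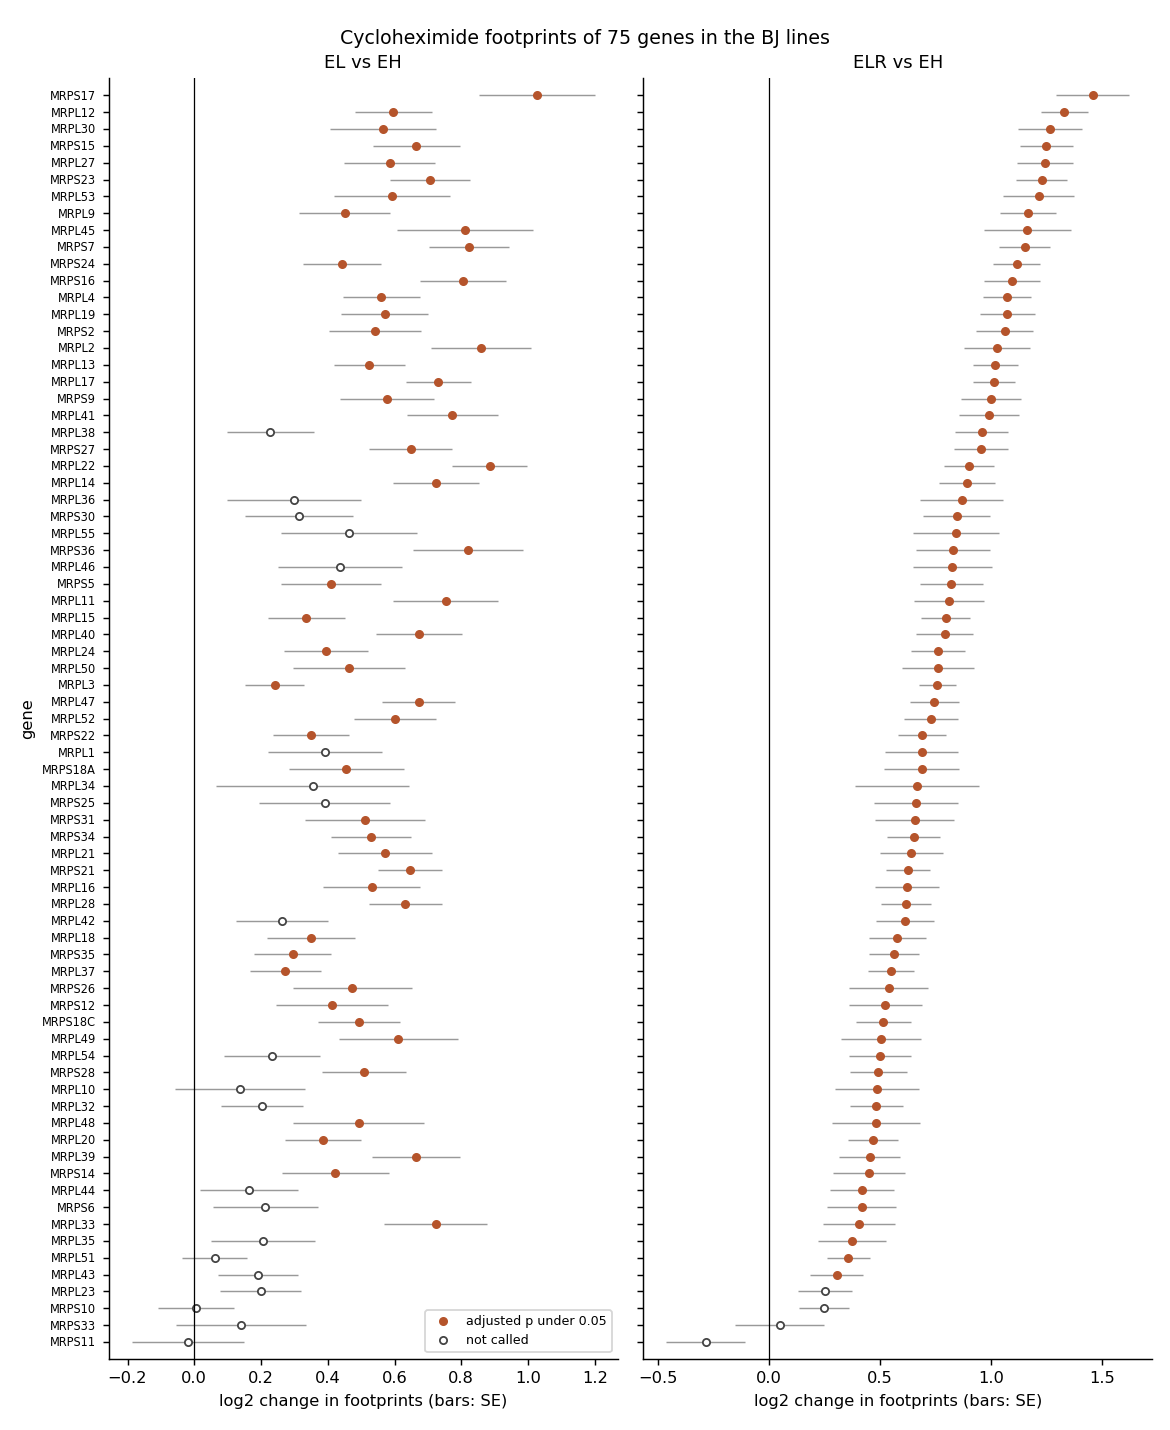
Log2 change in cycloheximide footprints (x axis, bars: SE) of 75 genes (y axis, ordered by the change from EH to ELR) for EL against EH and for ELR against EH, with filled points for an adjusted p under 0.05. On the right 71 points are filled, and MRPS11 (−0.29) is the one value below 0; on the left 54 are filled.

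At the first step, EL against EH, 54 of 75 genes rose and none fell (median log2 0.49, all genes −0.01), where 19.1% of all genes were higher. An unadjusted p under 0.05 was found for 57 members and for 4805 of all 9996 genes. DESeq2 called 35 members higher and 0 lower. After MRPS17 (1.03 ± 0.17), the largest changes were those of MRPL22 (0.88 ± 0.11), which lines the exit tunnel in bacteria, MRPL2 (0.86 ± 0.15), MRPS7 (0.82 ± 0.12), MRPS36 (0.82 ± 0.16) and MRPL45 (0.81 ± 0.20), a mitochondria-specific protein at the tunnel exit. MRPL22 had 80.9 and 85.6 CPM in EH, 149 and 152 in EL and 148 and 150 in ELR. It rose at the first step, and its values in EL and ELR overlapped (0.02 ± 0.08, adjusted p = 0.89). The calls of MRPL45 and MRPS36 were the less stable ones: MRPL45 lost its call without EH replicate 1 (adjusted p = 0.065) and MRPS36 in the fit of 16 libraries (adjusted p = 0.051).

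At the second step, ELR against EL, 35 rose and 1 fell (median 0.27, all genes −0.01), where 17.4% of all genes were called higher and 18.7% lower; DESeq2 called 15 higher and 0 lower. The largest changes were those of MRPL12 (0.74 ± 0.08), MRPL38 (0.73 ± 0.10), MRPL9 (0.72 ± 0.10), MRPL30 (0.70 ± 0.11), MRPS24 (0.67 ± 0.08) and MRPL27 (0.66 ± 0.09). MRPL38, a later number of the central protuberance, had 68.7 and 91.1 CPM in EH, 97.0 and 83.1 in EL and 149 and 146 in ELR, so that EH and EL overlapped and ELR stood apart. MRPL33 was the one that fell, by 0.32 on the log2 scale (SE 0.12, adjusted p = 0.032), from 74.9 and 70.8 CPM in EL to 58.1 and 56.6 in ELR, with EH lower than both lines. That call was absent with DESeq2, in the fit of 16 libraries, without the filter on low counts, and without EL replicate 1 or either ELR replicate.

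RNA in the BJ lines was measured once per line, so no test is given for it. On the scale of log2(CPM + 1), over genes that reached 10 CPM in either library, the members' median ratio was 0.25 for EL to EH (63 of 71 above 0), 0.17 for ELR to EL (51 of 73) and 0.49 for ELR to EH (65 of 73). Across all genes the medians were −0.04, −0.01 and −0.02, and 48.4% of 8922 genes were above 0 for ELR to EH. The highest member of this set was MRPL12, with RNA of 39.9 CPM in EH, 54.3 in EL and 95.7 in ELR (log2 ratio to EH 1.24), followed by MRPS24 (20.6, 28.5 and 49.3), MRPS16 (28.3, 50.7 and 65.4) and MRPS17 (19.3, 30.8 and 43.8). MRPS33 was lowest, with 28.7, 26.2 and 20.1 CPM.

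Ribosome loading, meaning how far footprints under cycloheximide changed more or less than RNA, was tested as an interaction over the RNA and cycloheximide libraries together, with single RNA libraries assumed to vary like the replicated arms. No member was called for EL against EH or for ELR against EH by edgeR or by DESeq2. The absence of calls does not show equal loading, since the median SE of a member's log2 change was 0.33 and 0.31. At an unadjusted p under 0.05 there were 2 and 12, and 0.0576% and 0.494% of 12143 genes were called. The members' medians were 0.21 and 0.29, against 0.05 and 0.06 for all genes, and 0.09 and 0.17 against −0.04 and −0.02 with RLE scaling. For the cytosolic ribosomal proteins the medians were 0.63 and 0.93, with 0 and 30 of 79 called higher.

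Under harringtonine, only 15 members had enough counts in the BJ libraries. In ELR against EH, 4 of the 15 were called higher, where 13.3% of all 3553 genes tested were. These 4 had fewer than 10 counts in both EH libraries and passed the filter through the lines where they are high, so the count is no measure of the set. MRPL18 had 17.4 and 38.3 CPM in EH, 93.6 and 54.0 in EL and 121 and 122 in ELR (2.15 ± 0.53, adjusted p = 0.00036), and MRPL19 had 43.6 and 9.59, 70.2 and 24.0, and 121 and 104 CPM (2.04 ± 0.55). MRPS24 changed by 1.57 ± 0.51 and MRPS23 by 1.49 ± 0.61. In all 4 the ELR values lay above both EH values, from 1 to 6 counts per library in EH and 16 to 27 in ELR. This adds no support, since the 4 were picked as called higher in ELR. DESeq2 called none of the 15. In edgeR 7 of the 15 and 1400 of all 3553 genes had an unadjusted p under 0.05. Only 2 members were called without EH replicate 1 or without EH replicate 2. MRPS23 lost its call under every alternative run for this comparison.

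In ER-Src cells, switching on Src changed few of these messages. Summed cycloheximide footprints were 8180 to 8952 CPM in the 4 uninduced libraries, 9127 and 8961 at 1 h, 7960 and 8871 at 4 h, and 7827 and 7658 at 24 h. The values at 24 h lay below all others, and those at 1 h just above the uninduced range. Of the 4 uninduced libraries, that of 0 h is replicate 1 and those with ethanol are replicate 2, so that vehicle and replicate number cannot be told apart within them.

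At 1 h no member was called by edgeR (0.0196% of 10193 genes were) or by DESeq2, and the median log2 change was 0.10. An unadjusted p under 0.05 was found for 6 members and 795 of all genes. At 4 h none was called either (0.854% of all genes, DESeq2 0 members), with a median of −0.02. There 1 member and 760 of all genes had an unadjusted p under 0.05. The largest positive values at 1 h were those of MRPS12 (0.42 ± 0.15, adjusted p = 0.56), MRPL33 (0.35 ± 0.18) and MRPL17 (0.35 ± 0.12), and the most negative was that of MRPS31 (−0.36 ± 0.20).

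At 24 h, 3 of 75 genes fell and none rose (median −0.13, all genes −0.01), where 5.84% of all genes were called lower. An unadjusted p under 0.05 was found for 15 of the members and for 2831 of all 10193 genes, which is a larger share. MRPL15 had 149 to 169 CPM in the 4 uninduced libraries (median 160.3), 156 and 134 at 1 h, 141 and 158 at 4 h and 89.5 and 118 at 24 h. Both values at 24 h lay below every other. The change was −0.61 ± 0.14 (adjusted p = 0.008). MRPL11, of the base of the stalk, had 67.9 to 78.1 CPM uninduced (median 72.6) and 55.4 and 51.5 at 24 h (−0.46 ± 0.14, adjusted p = 0.036), and MRPS27, an RNA-binding protein of the small subunit, 153 to 168 (median 159) and 121 and 115 (−0.44 ± 0.12, adjusted p = 0.025). DESeq2 called 2 lower. Without tamoxifen replicate 1 at 24 h none was called, and without replicate 2 there was 1. MRPL11 also lost its call with DESeq2 (adjusted p = 0.11), without the filter on low counts (0.076) and without any 1 of the 3 ethanol libraries (0.052 to 0.068). In the same comparison 62 of 76 cytosolic ribosomal protein genes fell (median −0.69) and 1 of 80 respiratory chain genes did (median 0.02).

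**Figure D4:**
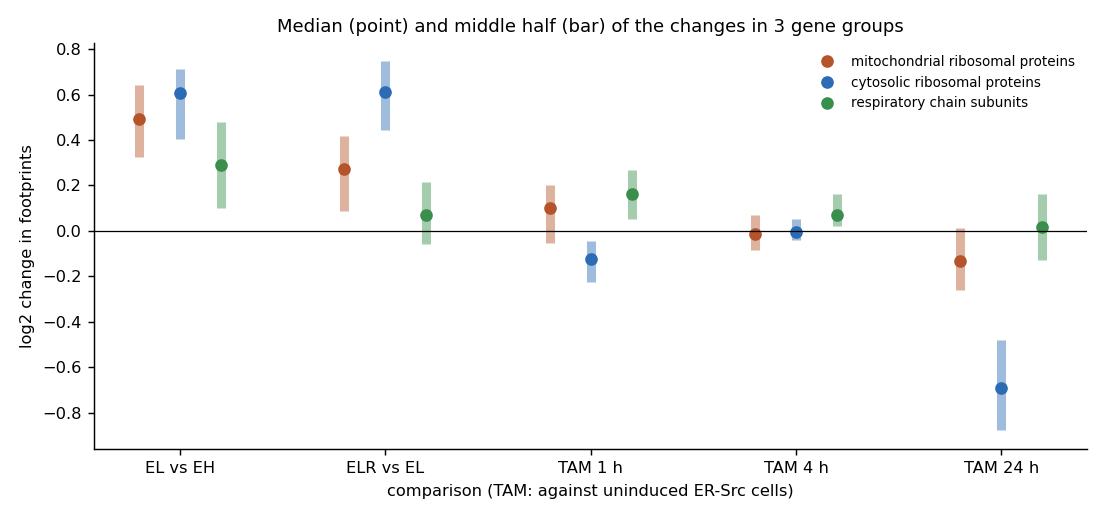
Log2 change in cycloheximide footprints (y axis) in 5 comparisons (x axis) for the mitochondrial ribosomal proteins, the cytosolic ribosomal proteins and the nuclear-encoded respiratory chain subunits, with the median as a point and the range between the quartiles as a bar. The mitochondrial group stands at 0.49 and 0.27 in the fibroblast steps and at 0.10, −0.02 and −0.13 after tamoxifen, where the cytosolic group reaches −0.69.

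RNA of the late times, 4 and 24 h together, against the uninduced RNA gave no called member with edgeR or DESeq2 (median −0.11). Of all 10612 genes 0.424% were called, and 5 members and 1135 of all genes had an unadjusted p under 0.05. Loading at 24 h likewise gave none (median −0.08; 0.618% of 12143 genes called; 6 members at an unadjusted p under 0.05), while 48 of 79 cytosolic ribosomal protein genes were called lower there. MRPL12 had RNA of 80.9 to 95.2 CPM in the 4 uninduced libraries and a late change of −0.27 ± 0.18. The harringtonine footprints, 1 library per time, summed to 2857 CPM at 0 h, 2817 at 1 h, 2726 at 4 h and 3537 at 24 h, with no replicate to set a spread.

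Between the models, the uninduced epithelial cells had more of these messages and more ribosomes on them than the mean of the 3 BJ lines. In footprints 55 of 75 were higher and 1 was lower (median log2 0.47, all genes 0.05; 33.8% and 26.9% of all genes were called higher and lower). In RNA 48 were higher and none lower (median 0.53, all genes 0.02; 30.2% of all genes called higher; 51 members had an unadjusted p under 0.05 and DESeq2 called 43 higher and 0 lower). With the replicate number as a block, the count in footprints was 36. The summed footprints of ELR, 8180 and 8310 CPM, lay within or at the end of the uninduced epithelial range, while the single ELR RNA library (4596 CPM) lay below the uninduced RNA (5056 to 5477 CPM).

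MRPL55, a later number, differed most in footprints. It had 60.4 to 90.1 CPM in the uninduced epithelial libraries (median 81.2), 28.2 and 27.6 in EH, 37.8 and 37.9 in EL and 45.3 and 52.3 in ELR. No BJ library reached the epithelial range, and the log2 difference was 1.14 ± 0.13 (adjusted p = 5.0e-08). MRPS25 differed by 0.93 ± 0.10, MRPS26 by 0.92 ± 0.12, MRPL1 by 0.86 ± 0.10, MRPL13 by 0.86 ± 0.10 and MRPS33 by 0.86 ± 0.14. MRPL43 was the one lower in epithelial cells, with 52.0 to 85.4 CPM (median 72.7) against 100 and 96.6, 113 and 107, and 105 and 133 CPM in the BJ lines (−0.57 ± 0.12, adjusted p = 0.0002).

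In RNA the largest differences were those of MRPL34 and MRPS26. MRPL34 rests on few reads, 9 counts in the 3 BJ RNA libraries (0 in EH, 5 in EL, 4 in ELR) and 52 in the 7 ER-Src ones, and its difference was 2.65 ± 0.82. MRPS26 had 23.4 to 38.2 CPM in uninduced ER-Src and 9.43, 9.95 and 10.2 in EH, EL and ELR (1.54 ± 0.20, adjusted p = 3.8e-07). MRPL21 differed by 1.06 ± 0.13, MRPS12 by 1.03 ± 0.24, MRPS21 by 0.99 ± 0.13 and MRPL22 by 0.92 ± 0.11. The difference in loading between the models was called for no member by edgeR or DESeq2 (median −0.07; 3.24% of all genes called; 11 members at an unadjusted p under 0.05).

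Footprints were high relative to RNA for most of these genes in both models. The ratio compares libraries made by different methods and has no absolute zero, so it is read against all genes, whose median was 0.00. In uninduced ER-Src cells 62 of 75 were higher and 3 lower, with a median log2 ratio of 1.04 (35.1% and 33.3% of all genes), and in the BJ lines 64 were higher and 3 lower, with a median of 1.08 (33.2% and 34.2%). The order of the genes was nearly the same in the 2 models: across the 75 genes the Spearman rho was 0.96, and 0.86 across all 12143. High ratios were not particular to the members. Over all ER-Src libraries, median RNA and footprint levels were 85.6 and 172 CPM per kb in the members. Respiratory chain genes had 146 and 488, and cytosolic ribosomal protein genes 1342 and 2031. In BJ the values were 66.5 and 141, 97.3 and 354, and 853 and 2129, in the same order of groups.

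The 3 genes called lower in footprints than in RNA were the same small-subunit genes in both models; 8 of the 75 had a ratio below 0 in each. MRPS31 had 79.3 to 104 CPM of RNA and 33.6 to 43.2 of footprints in uninduced ER-Src, and 91.1 to 111 of RNA and 35.0 to 58.2 of footprints in BJ, with no overlap in either (log2 ratio −1.07 ± 0.13 and −1.04 ± 0.12). MRPS5, whose bacterial counterpart lies at the entry of the messenger RNA channel, had 155 to 179 CPM of RNA and 87.4 to 104 of footprints in uninduced ER-Src (−0.69 ± 0.09; −0.83 ± 0.10 in BJ). MRPS22 was at −0.34 ± 0.09 and −0.41 ± 0.09.

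At the other end stood MRPL52, MRPL34, MRPL50, MRPL37, MRPS12 and MRPS6. MRPL52 had 9.24 to 16.1 CPM of RNA and 102 to 122 of footprints in uninduced ER-Src (3.28 ± 0.13), and 11.3 to 13.1 of RNA and 71.8 to 125 of footprints in BJ (3.08 ± 0.15). MRPS12 had 8.81 to 11.7 CPM of RNA and 67.9 to 91.2 of footprints in uninduced ER-Src (3.05 ± 0.15), and 3.46 ± 0.19 in BJ. MRPL50 stood at 3.12 ± 0.16 and 2.68 ± 0.19, MRPL37 at 3.06 ± 0.13 and 2.97 ± 0.14, and MRPS2 at 2.95 ± 0.16 in BJ. MRPL34 had a ratio of 3.18 ± 0.30 in ER-Src and of 5.06 ± 0.55 in BJ, where its RNA rests on the 9 counts named above.

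**Figure D5:**
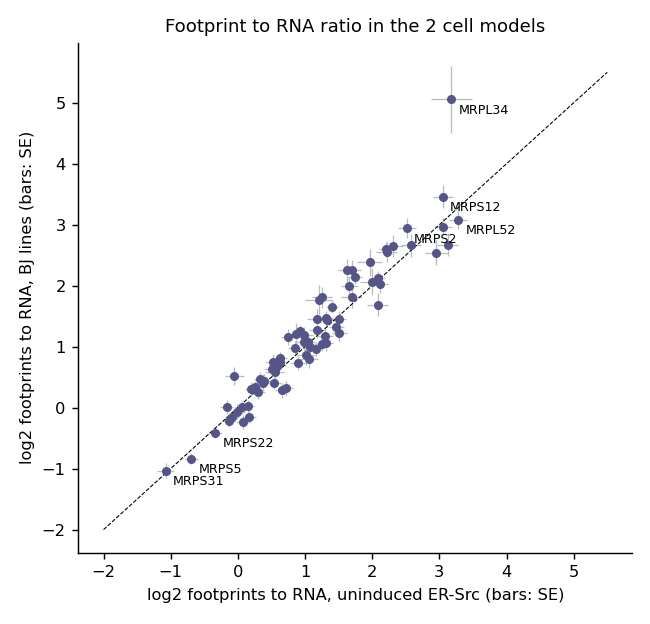
Log2 ratio of cycloheximide footprints to RNA in uninduced ER-Src cells (x axis) and in the BJ lines (y axis) for 75 genes, with SE as bars and equality as a dashed line. The points follow the line from MRPS31 (−1.07 and −1.04) to MRPL52 (3.28 and 3.08), and MRPL34 lies off it at 5.06 in BJ.

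The ratio moved with the composition and the length of the coding sequence, here as in all genes. Across the members, the Spearman rho of the log2 ratio was 0.50 (ER-Src) and 0.58 (BJ) with coding GC content and −0.51 and −0.48 with coding length, and across 11259 genes it was 0.42, 0.48, −0.52 and −0.50. In the 25 members lowest in GC (38.4 to 47.3%) the median ratio was 0.59 and 0.44, in the middle 25 it was 0.99 and 1.04, and in the 25 highest (56.3 to 68.1%) 1.66 and 2.00. RNA per kb was lower at higher GC (rho −0.43 and −0.46) and footprints per kb did not follow it (−0.05 and 0.03). Members have short coding sequences, with a median of 585 bases against 1452 in all tested genes, and about the same GC content (51.7 and 51.6%). The part of library preparation in this relation was not tested, nor was that of RNA reads outside the coding sequence. The relation with GC was examined after the ratios had been seen.

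Under harringtonine the counts of these genes fell further than those of most genes relative to cycloheximide. The fall was not particular to them. In ER-Src, median levels under cycloheximide and harringtonine were 172 and 52.4 CPM per kb in the members. Cytosolic ribosomal protein genes had 2031 and 446, and respiratory chain genes 488 and 111. In BJ the values were 141 and 42.7, 2129 and 513, and 354 and 102, in the same order of groups. In the BJ lines 72 of 75 were lower and none higher, with a median of −1.65 against −0.58 for all genes, and 32.1% of all genes were called lower. In ER-Src 72 were lower, with a median of −1.72 against −0.56, and 30.2% of all genes were called lower. With DESeq2 the medians of all genes were −0.12 and −0.21, and the members' −1.50 and −1.71. The 3 genes not called were MRPL53, MRPL55 and MRPS35 in BJ and MRPL34, MRPL53 and MRPS5 in ER-Src. The largest fitted decreases belong to genes with almost no harringtonine reads, such as MRPL50 (9 counts) and MRPL49 (8 counts) in the 4 ER-Src libraries or MRPS12 (9 counts) and MRPL54 (11 counts) in the 6 BJ libraries, where a fitted fold is not informative. Better measured, MRPL12 stood at −1.85 ± 0.19 in ER-Src and −1.96 ± 0.21 in BJ, MRPL3 at −0.82 ± 0.12 and −1.14 ± 0.14, and MRPL17 at −2.93 ± 0.19 in BJ. The change was less negative in longer coding sequences, as across all genes, with a rho of 0.46 (ER-Src) and 0.23 (BJ) in the members and 0.62 and 0.57 in 10740 genes.

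Other genes of mitochondrial translation were taken from lists, and their counts between ELR and EH stand beside the 25.5% of all genes called higher. A list of 8 held mitochondrial ribosome proteins with symbols outside the MRPL and MRPS series, and OXA1L, a membrane insertase that is the partner of the ribosome. Of these 8, 7 rose between ELR and EH and none fell (median log2 0.73). Among the 7 were MRP63 (1.15 ± 0.15), the peptidyl-tRNA hydrolase ICT1 (1.02 ± 0.12) and CHCHD1 (0.91 ± 0.14), while OXA1L did not pass the test (0.20 ± 0.12). Of 15 mitochondrial translation factors 10 rose and none fell (median 0.63), led by TACO1 (1.05 ± 0.18), the recycling factor MRRF (0.98 ± 0.24) and SLIRP (0.92 ± 0.07). Of 25 ribosome assembly factors 15 rose and 1, PTCD1, fell (−0.69 ± 0.30). C1QBP, a matrix protein required for mitochondrial translation, had 221 and 231 CPM in EH, 565 and 509 in EL and 712 and 729 in ELR, the largest rise of that list (1.73 ± 0.06), ahead of MTG1 (1.19 ± 0.17) and TRUB2 (1.18 ± 0.17).

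Of the listed regulators of nuclear genes for mitochondria, 10 of 12 could be tested in the BJ footprints, and 4 rose and none fell between ELR and EH (median log2 0.13), a count to be set beside the 25.5% of all genes called higher. TFAM, which packs and transcribes mitochondrial DNA, had 40.5 and 44.2 CPM in EH, 81.4 and 63.5 in EL and 98.1 and 94.98 in ELR (1.25 ± 0.15). MYC, a transcription factor with many ribosome-related targets, had 63.4 and 66.2, 79.9 and 80.4, and 115 and 112 CPM (0.87 ± 0.13), and TFB2M changed by 0.80 ± 0.19. At the first step 3 of the 10 rose (TFAM, YY1 and MYC) and 3 fell (GABPA, GABPB1 and POLRMT). Among all 9996 genes tested there, 1909 were called higher and 2241 lower, so these counts are not read as a trait of the list. GABPB1, a subunit of the ETS-family factor NRF2/GABP, fell by 0.70 on the log2 scale (SE 0.17). POLRMT, the mitochondrial RNA polymerase, fell by 0.70 (SE 0.24). In the ER-Src footprints none of these 4 lists had a called gene at 1, 4 or 24 h with edgeR. An unadjusted p under 0.05 was found for 6, 3 and 11 of their 59 tested genes. Among all 10193 genes it was found for 795, 760 and 2831. No other tool was run on the lists.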

How the data were processed

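The authors deposited 1 table per library with a whole-number count per transcript, not normalised. Reads were aligned with TopHat to hg19, per the submitters' processing notes; the TopHat version and the counting program are not given in the sources used here. Members were the symbols matching MRPL or MRPS and a number, and for every symbol the transcript with the highest mean count was kept. Members and gene lists were chosen with earlier results of these data known.

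Counts were tested with edgeR 4.0.16 (R 4.3.3, limma 3.58.1), TMM scaling and the two-sided quasi-likelihood test with Benjamini-Hochberg adjustment over all genes that passed the filter (minimum count 10, total 15), in 18 comparisons at a threshold of 0.05. Comparisons within a model and assay used the libraries of that model and assay. Loading, and the comparisons of the models and of RNA with footprints, used RNA and cycloheximide libraries of both models together. Harringtonine was compared with cycloheximide over the footprint libraries of both models. BJ RNA ratios used a pseudocount of 1 CPM and a minimum of 10 CPM. Errors of fold changes are standard errors. The scripts were tested on simulated data.

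Named were, in each comparison, up to 6 called members with the largest change in either direction, the 6 highest and 3 lowest per coding kilobase, and MRPL12, MRPS12, MRPL3, MRPL41, MRPL36 and the MRPS18 genes; of each other list, up to 3 called genes. In the BJ RNA, which has no test, genes were named by the size of their ratio. Alternatives were DESeq2 1.42.0, RLE scaling, no filter, another choice of transcript, a replicate block, a fit over 16 cycloheximide libraries and leaving out each library; another pseudocount was tried for the BJ RNA. Depth limits the harringtonine libraries most. Intervals and the floor of 3 counts cover counting error only.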

Additional observations from a re-analysis of the deposited data

Results flagged for a closer look

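Single libraries that stood apart were looked for in the 4 uninduced ER-Src libraries of each assay, by the gap between the most extreme library and its nearest neighbour as a share of the range. Chance alone marks about 1 in 20 such groups, and 6 of 102 series over 52 named genes were marked, which is close to that share. In RNA, MRPL11 stood at 22.9 CPM in the 4 h ethanol library against 29.3 to 30.4 in the others, MRPL37 at 19.6 in the 1 h ethanol library against 26.5 to 26.8, and MRPS22 at 163.9 in the 0 h library against 178.8 to 180.3. In cycloheximide footprints, MRPL34 stood at 44.8 CPM in the 24 h ethanol library against 22.6 to 25.4, MRPL54 at 81.3 in the same library against 67.1 to 69.5, and MRPL37 at 203.6 in the 1 h ethanol library against 181.3 to 183.9.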

How the results depend on the processing

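Of 2141 recomputed values of 117 results, 2077 kept their direction and their side of the threshold (or stayed within 1.5 times for counts), 40 lost their call, 24 moved and 0 reversed; the 40 belong to 11 of 69 results on named genes. With DESeq2 the members higher were 35 for EL against EH, 15 for ELR against EL and 0 for ELR against EH under harringtonine, and 1 was higher under harringtonine than under cycloheximide in BJ, as with RLE scaling (1). In the fit of 16 libraries 14 were higher in ELR against EL. The single member lower in ELR against EL became 0 with DESeq2, without the filter and in the fit of 16 libraries, and 0 to 1 when 1 library was left out. Leaving out 1 library gave 2 to 5 members higher under harringtonine in ELR against EH, 0 to 4 lower at 24 h of tamoxifen, and 0 to 2 lower in loading between the models, where the fit without the filter gave 1. RLE scaling gave 2 members lower in epithelial footprints. Summed CPM by raw totals instead of TMM were 4616 in EH, 7081 in EL and 8382 in ELR under cycloheximide, and 1555 in EH and 3308 in ELR under harringtonine. The cause was not tested in any of these. The replicate numbers were not taken to pair the samples, since not every correlation of deviations between same-numbered libraries was over 0.1: these were 0.02 to 0.04 in BJ cycloheximide and −0.02 to 0.03 in BJ harringtonine, but 0.05, 0.21 and 0.28 in ER-Src, where 2 of 3 were above it. With the replicate number as a block, 36 members in place of 55 were higher in epithelial footprints, 54, 37 and 71 were higher in the 3 BJ comparisons, and 3 were lower at 24 h. Depth limited the harringtonine comparison of BJ lines to 15 members.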
